A study of Homo sapiens with 6 samples.

Results

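The IFIT family is a group of interferon-induced genes that encode RNA-binding proteins built from tetratricopeptide repeats. Its human members IFIT1, IFIT1B, IFIT2, IFIT3 and IFIT5 lie next to each other on chromosome 10. The genes were taken as the array rows whose only annotated symbol was a member's, keeping the brightest row of a gene over the 6 arrays. Each of the 5 members had exactly 1 such row, so brightness decided nothing, and no row with several symbols held a member. All 5 were measured, out of 18417 genes in all. The family was picked with earlier results of these arrays known, so its values are given as a description of how its members differ, and its adjusted p-values are not independent evidence that the family responds.

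RNA came from YCC3, an established cell line of human gastric cancer, transfected 48 hours earlier with CTNNB1 siRNA (3 arrays) or with non-targeting control siRNA (3 arrays). CTNNB1 encodes beta-catenin, the Wnt pathway co-activator, and both groups received a transfected double-stranded RNA. The labels name no untransfected cells and no second siRNA, and the cells are a single line. They speak of biological replicates without saying whether these were separate cultures, so the p-values measure only the spread between these 6 samples, which may be technical. The study asks what changes when CTNNB1 is silenced.

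In textbook accounts, cells switch IFIT genes on when RNA sensors activate IRF3 or when interferon, through its receptors and a STAT and IRF9 complex, acts on a promoter motif called the interferon-stimulated response element (ISRE). IFIT1 binds RNA whose 5′ end lacks the methylation of host mRNA and keeps it from being translated. IFIT3 binds and stabilises IFIT1, IFIT2 joins the same complex and prefers AU-rich RNA, and IFIT5 binds RNA with a 5′ triphosphate on its own. IFIT1B is a paralog of IFIT1 whose role in human cells is little known.

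The promoter sequences are shown first, and a link between their letters and the changes in signal was not tested. RefSeq promoter windows (GRCh38.p14, from 250 bases before to 50 bases after an annotated start) were matched for 4 of the 5 members, IFIT1, IFIT3, IFIT5 and IFIT1B, with separate windows for 2 starts of IFIT3. The stretches below run 5′ to 3′ on the plus strand of chromosome 10, from 160 bases before the start to its first 6 bases. Capitals mark matches to the ISRE letters GAAANNGAAA, which on this strand read TTTCNNTTTC.
IFIT1, chr10:89392463-89392628: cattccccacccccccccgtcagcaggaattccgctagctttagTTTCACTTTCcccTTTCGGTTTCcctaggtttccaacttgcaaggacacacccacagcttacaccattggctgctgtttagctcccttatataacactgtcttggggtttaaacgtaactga
IFIT3, start 1, chr10:89327837-89328002: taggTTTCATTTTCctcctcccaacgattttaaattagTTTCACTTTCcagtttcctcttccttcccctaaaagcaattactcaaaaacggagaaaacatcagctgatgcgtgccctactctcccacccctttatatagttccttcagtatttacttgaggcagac
IFIT3, start 2, chr10:89332369-89332534: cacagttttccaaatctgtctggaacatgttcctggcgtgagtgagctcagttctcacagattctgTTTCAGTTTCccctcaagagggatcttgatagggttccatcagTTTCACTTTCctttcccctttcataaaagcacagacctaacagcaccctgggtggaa
IFIT5, chr10:89414408-89414573: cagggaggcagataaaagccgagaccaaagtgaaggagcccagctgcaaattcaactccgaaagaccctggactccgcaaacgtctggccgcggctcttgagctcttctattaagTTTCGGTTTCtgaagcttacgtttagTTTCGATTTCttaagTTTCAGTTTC
IFIT1B, chr10:89377896-89378061: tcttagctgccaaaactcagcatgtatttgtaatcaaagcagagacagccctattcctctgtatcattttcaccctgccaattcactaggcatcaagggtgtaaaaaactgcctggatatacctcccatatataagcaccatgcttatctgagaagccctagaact

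The window of IFIT1 held 2 ISRE matches, the nearer of them ending 94 bases before the start. Both IFIT3 windows held 2, ending 113 and 42 bases before their starts at the nearest. IFIT5 held 3, the last of which ran across the start itself. IFIT1B held none over the whole window. Searched on both strands, at least 1 match was present in 3.57% of the 35116 promoter windows of the table, at least 2 in 0.259% and at least 3 in 0.037%. The letters CTTTGA, the core of the motif read by the TCF partners of beta-catenin, matched among these windows in IFIT1B only, 127 to 122 bases before the start, and in 12.9% of all windows. The STAT motif TTCNNNGAA, present in 7.66% of all windows, and TATAAA read on the plus strand, in 7.33%, had no match in the windows of these 4 genes. No 2 of these matches overlapped. A match describes letters in a window and is not a measured binding site.

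**Figure D1:**
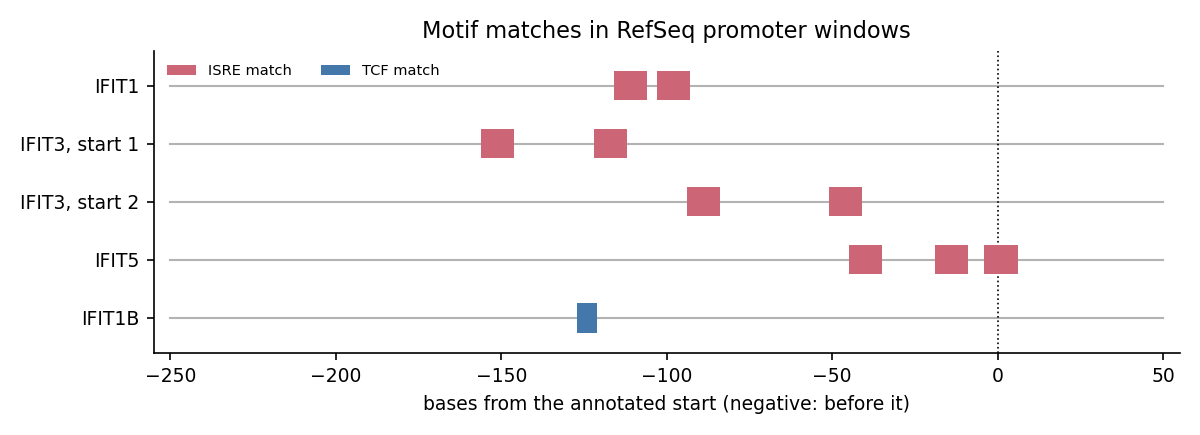
Matches to the ISRE (red) and TCF (blue) letters along the RefSeq promoter windows of 4 IFIT genes, in bases from the annotated start (dotted line). IFIT1, both starts of IFIT3 and IFIT5 hold 2 or 3 ISRE matches each, and IFIT1B holds a TCF match and no ISRE match.

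CTNNB1 itself measured 11.80, 11.81 and 11.90 log2 units on the control arrays and 10.94, 11.06 and 11.20 on the CTNNB1 siRNA arrays. This is 41.4% less signal, with a limma adjusted p of 0.00267, and it matches the labels. Array medians lay between 5.88 and 5.95 after the deposited normalization. YCC3 arrays carried bright epithelial markers, with a mean over 9 genes between 10.96 and 11.22 log2 units on every array. Of the gastric markers CLDN18 was bright (11.21 ± 0.23 SD in controls, n = 3), while GKN1 and GKN2 lay at 2.61 and 2.58 in controls, near the low end of the scale. At an adjusted p under 0.05, limma called 2.07% of all genes higher and 2.65% lower. Of the 9 epithelial and 6 gastric markers measured, 4 rose with CTNNB1 siRNA and none fell. These were TFF1, a gastric mucous cell peptide gene (1.15 ± 0.11 log2 units, SE; adjusted p = 0.000314), CLDN4 (0.61 ± 0.10), CLDN18 (0.52 ± 0.12) and ELF3 (0.48 ± 0.12), and their part in the IFIT results was not tested.

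With CTNNB1 siRNA, 4 of the 5 IFIT genes rose and IFIT1B did not pass the threshold, an adjusted p under 0.05 in limma over all genes. Among all genes, 2.07% were called higher and 2.65% lower, 4.72% in all. That balance turned with the scaling, from 382 higher and 488 lower as deposited to 488 and 379 under cyclic loess, 458 and 447 after quantile normalization was repeated, and 340 and 667 with median centring. Higher calls also outnumbered lower ones without control replicate 1 (193 and 95), control replicate 3 (248 and 124), CTNNB1 siRNA replicate 1 (183 and 100) or CTNNB1 siRNA replicate 2 (262 and 159). The median change over the 5 members was 2.72 log2 units, against 0.01 over all 18417 genes. The arrays of both groups did not overlap for any of the 5 members, which held for 26.0% of all genes in either direction.

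IFIT1, the sensor of incompletely capped RNA, measured 6.06, 5.92 and 6.28 log2 units on control arrays 1 to 3 and 10.28, 10.36 and 10.44 on CTNNB1 siRNA arrays 1 to 3. All CTNNB1 siRNA arrays lay far above all control arrays, while the arrays within a group spanned 0.36 and 0.16 log2 units. The change was 4.27 ± 0.11 (SE) log2 units, a 19.3-fold rise in array signal with a 95% confidence interval of 4.02 to 4.53 on the log2 scale (adjusted p = 5.44e-08). It was the second largest rise of all genes tested. Control arrays of IFIT1 lay just above the array median, so the gene went from a mid-scale signal to a bright one.

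IFIT2, which joins IFIT1 and IFIT3 in a complex, measured 5.14, 4.88 and 5.59 on the control arrays and 7.90, 7.97 and 8.14 on the CTNNB1 siRNA arrays. Its control arrays spread most of the family, over 0.70 log2 units, and its CTNNB1 siRNA arrays over 0.25. The change was 2.80 ± 0.16 (SE; adjusted p = 6.41e-06), 6.95-fold in array signal.

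IFIT3, the stabilising partner of IFIT1, measured 5.37, 5.33 and 5.40 on the control arrays and 7.85, 8.19 and 8.24 on the CTNNB1 siRNA arrays. Here the spread was the other way round: the control arrays agreed within 0.07 log2 units and the CTNNB1 siRNA arrays within 0.40. The change was 2.72 ± 0.12 (SE; adjusted p = 6.43e-07), 6.61-fold in array signal. For IFIT2 and IFIT3 every control array lay below its array's median and every CTNNB1 siRNA array above it. Background calls per probe were not used here, so it is unknown whether these control signals stood above background, and the folds are those of the signal as deposited.

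IFIT5, the member that acts alone on triphosphate RNA, measured 6.36, 5.93 and 6.18 on the control arrays and 8.28, 7.99 and 8.42 on the CTNNB1 siRNA arrays. Control arrays 1 and 2 differed by 0.43 log2 units, and the CTNNB1 siRNA arrays spanned as much. The gap between the groups was still 1.63. The change of 2.07 ± 0.14 (SE; adjusted p = 1.94e-05), or 4.21-fold, was the smallest of the 4 rises and the 27th largest of all genes. IFIT5 passed with any 1 array left out, but in a per-gene test without moderated variance its adjusted p was 0.0503.

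IFIT1B measured 3.73, 3.75 and 3.88 on the control arrays and 3.44, 3.20 and 3.48 on the CTNNB1 siRNA arrays. All 6 values were far below the array medians, where signal above background was not shown. The change was -0.41 ± 0.11 (SE), opposite in sign to the other members, with an adjusted p of 0.0611. It passed in 2 of the 15 other settings that tested it, among them median centring, with a change of -0.45 and an adjusted p of 0.0457. The row of IFIT1B thus carried no rise on the arrays where the row of its paralog IFIT1 rose 19.3-fold.

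**Figure D2:**
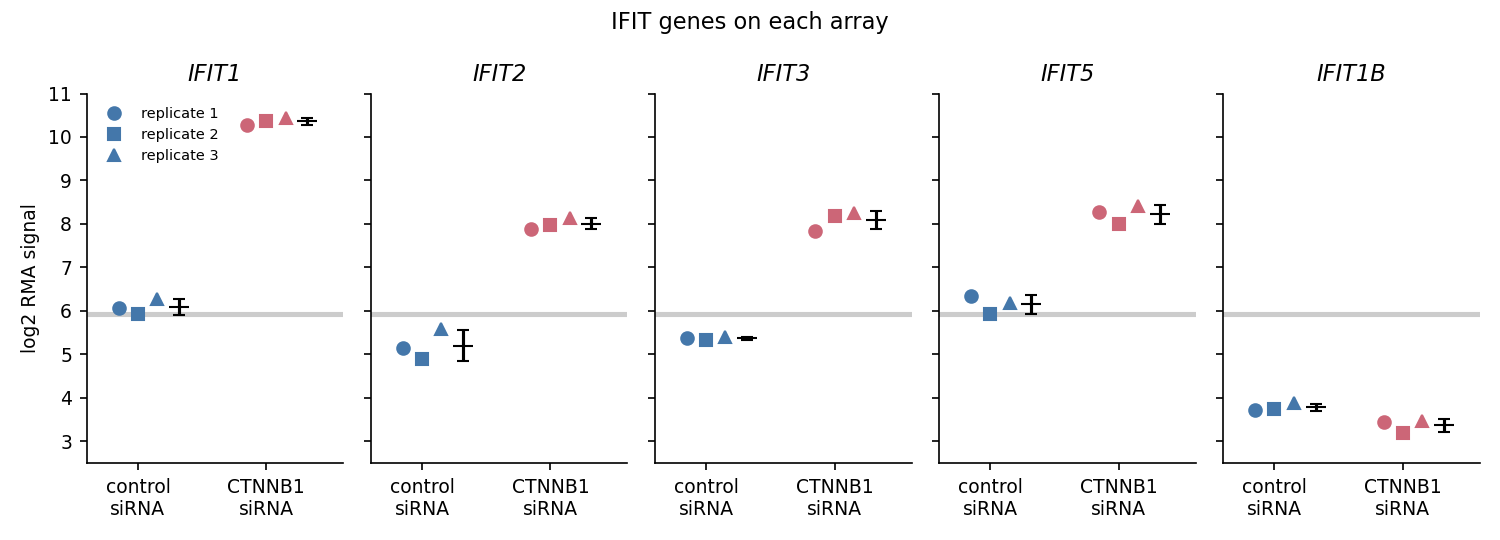
Log2 RMA signal of each IFIT gene on the 3 control siRNA arrays (blue) and the 3 CTNNB1 siRNA arrays (red), with replicates 1 to 3 as circle, square and triangle, mean ± SD as black bars, and array medians as a grey band. IFIT1, IFIT2, IFIT3 and IFIT5 lie between 7.85 and 10.44 with CTNNB1 siRNA, above all their control arrays, while IFIT1B is at most 3.88 on every array.

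Ordered by change, IFIT1 came first, then IFIT2 and IFIT3, then IFIT5, and IFIT1B last. IFIT1 exceeded IFIT2 by 1.48 log2 units, and their 95% intervals (4.02 to 4.53 and 2.44 to 3.16) lay apart. IFIT2 and IFIT3 differed by 0.07, less than the standard error of either. The interval of IFIT5, 1.76 to 2.39, lay just below that of IFIT3, 2.46 to 2.99, and overlapped no other. Differences between members were not tested, and RMA signals of different rows do not compare the amounts of their transcripts. IFIT2 had no promoter window, so ISRE matches could not be counted for all 4 genes that rose. A relation between match count and change was not tested.

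Members shared some of their array-to-array deviation. CTNNB1 siRNA replicate 3 was the highest array of its group for all 5 members, by 0.08 to 0.19 log2 units above the group mean. CTNNB1 siRNA replicate 1 was the lowest for IFIT1, IFIT2 and IFIT3, and replicate 2 for IFIT5 and IFIT1B. Among the controls, replicate 2 was the lowest array for IFIT1, IFIT2, IFIT3 and IFIT5, and replicate 3 the highest for every member except IFIT5. These deviations are small beside the changes: leaving out any 1 array gave 4.19 to 4.37 for IFIT1, 2.64 to 2.99 for IFIT2, 2.65 to 2.85 for IFIT3 and 1.96 to 2.19 for IFIT5. With any 1 array left out all 4 were called, and the highest adjusted p was 0.000694, for IFIT5.

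The genes whose signal followed a member most closely were found from the root mean square difference over the 6 arrays, each gene first centred on its own mean. SAMD9 was closest to IFIT3, at 0.09 log2 units, followed by MX1 at 0.11 and DDX60 at 0.13. MX1 was also closest to IFIT2 (0.17), followed by IFIT3 itself (0.20) and IFI44 (0.21). For IFIT1 they were OAS2 (0.20), RSAD2 (0.20) and IFI44L (0.23). For IFIT5 they were USP18 (0.17), IFIH1 (0.21) and SP110 (0.23). IFIT3 was the only member among another member's 3 nearest genes. This measure is set mostly by the difference between the groups, so it picks genes with a change of similar size. Among these 10 genes outside the family, 8 had a RefSeq promoter window and 7 of those held an ISRE match in at least 1 window. This count is per gene, with up to 3 windows for a gene, whereas the 3.57% of all windows is per window. A share per gene was not computed, and a part of the motif in the changes was not tested.

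The genes beside the cluster were compared next, chosen by position only as the nearest 5 with a named row on each side. None of the 10 neighbours was called by limma, none had an unadjusted p under 0.05, and none had groups that did not overlap. Over all genes 4.72% were called and 26.0% had groups that did not overlap, so a count of 0 called among 10 is near the background. On one side, LIPA, which encodes lysosomal acid lipase and overlaps the cluster in the RefSeq annotation, had a change of 0.20 ± 0.11 (SE) and CH25H, a cholesterol hydroxylase gene also known to respond to interferon, of 0.22 ± 0.15. Beyond them lay FAS, a death receptor gene (-0.04 ± 0.11), ACTA2, a smooth muscle actin gene (0.13 ± 0.12), and ACTA2-AS1 (-0.17 ± 0.13). On the side of IFIT5 the changes were 0.09 ± 0.16 for SLC16A12, a transporter gene, 0.02 ± 0.10 for PANK1, a coenzyme A synthesis gene, and -0.17 ± 0.16 for the microRNA gene MIR107. FLJ37201 (-0.21 ± 0.13) and the mitotic kinesin gene KIF20B (-0.20 ± 0.12) followed. The largest neighbour change, 0.22, was smaller than the 2.07 of IFIT5. Of 7 neighbours with a promoter window, 1, ACTA2, held an ISRE match, again a count per gene without a background share. In other settings at most 1 neighbour had an unadjusted p under 0.05.

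**Figure D3:**
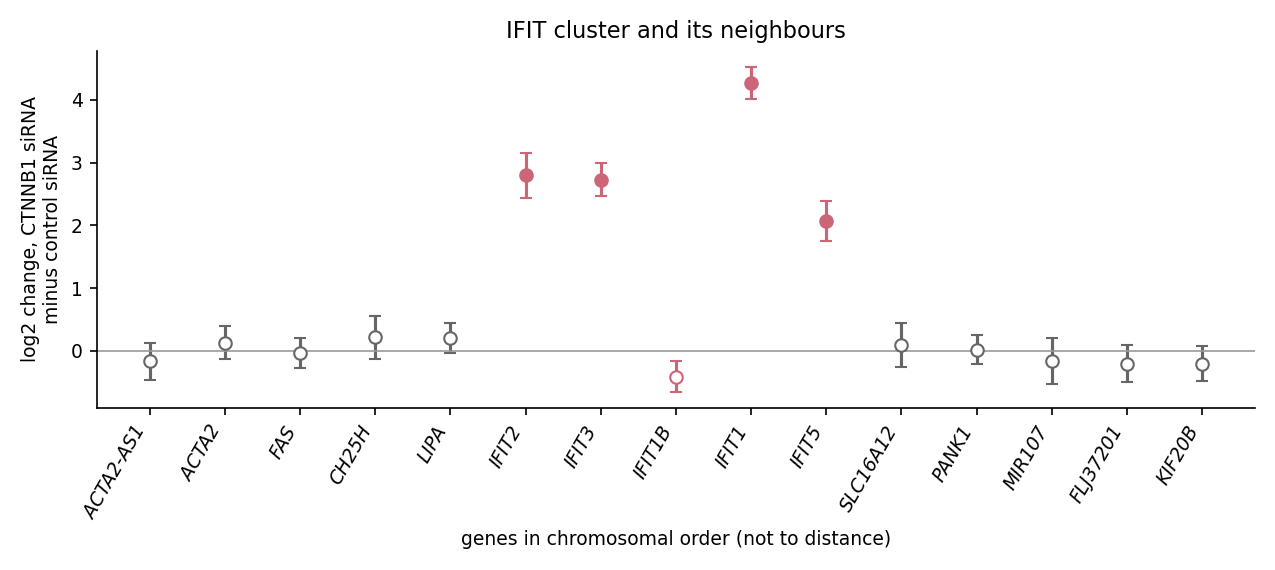
Log2 change, CTNNB1 siRNA minus control siRNA, of the IFIT genes (red) and the 5 named genes on each side (grey) in chromosomal order, with 95% confidence intervals; filled points passed an adjusted p of 0.05. The 4 filled points, from 2.07 to 4.27, stand between neighbours whose changes run from -0.21 to 0.22, with IFIT1B open among them at -0.41.

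Of 14 genes of nucleic acid sensing, which textbook accounts place upstream of IFIT genes, 5 rose, none fell and 9 stayed short of the threshold. Whether they rose before the IFIT genes or along with them was not tested. Over all genes 2.07% were called higher and 2.65% lower. The median change of the list was 0.26. Of the sensors of cytosolic double-stranded RNA, IFIH1, encoding MDA5, rose by 2.10 ± 0.11 (SE; adjusted p = 2.46e-06), RIGI by 1.80 ± 0.12 (adjusted p = 1.70e-05) and DHX58, encoding their regulator LGP2, by 1.42 ± 0.12 (adjusted p = 0.000122). IFIH1 measured 6.51, 6.47 and 6.56 on the control arrays and 8.42, 8.71 and 8.70 on the CTNNB1 siRNA arrays, close to the change of IFIT5. EIF2AK2, the RNA-activated kinase PKR that shuts down translation, rose by 1.21 ± 0.10 (adjusted p = 8.48e-05). IRF7, an interferon-inducible transcription factor, rose by 0.79 ± 0.14 (adjusted p = 0.0120), a call that ended when CTNNB1 siRNA replicate 1 (adjusted p = 0.0695) or control replicate 3 (0.0525) was left out. Relay genes that did not pass were MAVS (0.04 ± 0.15), TBK1 (0.08 ± 0.09), IRF3 (-0.05 ± 0.10), IKBKE (0.16 ± 0.10) and TRAF3 (-0.19 ± 0.10). The groups did not overlap for the last 2 of these, for 10 of the 14 sensing genes and for 26.0% of all genes. The endosomal RNA sensor TLR3 measured 0.46 ± 0.14 (adjusted p = 0.101) and the DNA sensor CGAS 0.17 ± 0.10 (adjusted p = 0.403). STING1, also on this list, measured 0.34 ± 0.13 (adjusted p = 0.170).

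Among interferons and their signalling genes, 6 of 17 measured members rose, none fell and 11 stayed short of the threshold. Of all genes 2.07% were called higher. The median change of the list was 0.31. The type III interferon genes rose, IFNL1 by 1.16 ± 0.13 (adjusted p = 0.000892), IFNL2 by 1.37 ± 0.17 (adjusted p = 0.00181) and IFNL3 by 0.99 ± 0.19 (adjusted p = 0.0186). IFNL2 and IFNL3 are near-identical and may share signal, and the call of IFNL3 ended when control replicate 1 (adjusted p = 0.0647), control replicate 3 (0.0783) or CTNNB1 siRNA replicate 1 (0.0597) was left out. IFNL1 measured 7.02 ± 0.23 with CTNNB1 siRNA against 5.86 ± 0.13 (SD, n = 3 each). The type I interferon gene IFNB1 was dim and its groups overlapped (adjusted p = 0.226). It measured 2.73 ± 0.08 in controls against 3.05 ± 0.27 after CTNNB1 siRNA (SD, n = 3 each). USP18, a protease that damps the interferon receptor, rose by 2.21 ± 0.09 (adjusted p = 5.63e-07), the DNA-binding partner IRF9 by 0.70 ± 0.09 (adjusted p = 0.00267) and IRF1 by 0.70 ± 0.11 (adjusted p = 0.00704). Receptor and kinase genes did not pass, with IFNAR1 at -0.01 ± 0.11, IFNLR1 at 0.03 ± 0.12, JAK1 at 0.03 ± 0.09 and TYK2 at -0.04 ± 0.10, and IL10RB, the shared chain of the type III receptor, was nearest to the threshold at 0.43 ± 0.11 (adjusted p = 0.0543). The other 3 genes on this list of 20 had no row with a single symbol.

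IFIT1 reads the 5′ cap, so genes that make, read or remove the cap were compared as well. Of 8 measured, 1 rose, none fell and 7 stayed short of the threshold, the median change being 0.11. With 2.07% of all genes called higher, a count of 1 among 8 is too small to set apart from that share. The gene that rose was CMTR1, the enzyme that adds the cap methyl group by which host mRNA escapes IFIT1 and which is itself interferon-inducible, from 8.48 ± 0.06 to 8.97 ± 0.04 (SD, n = 3 each). Its change of 0.49 ± 0.09 (SE; adjusted p = 0.0156) was far below that of IFIT1, and it missed the threshold when control replicate 1 (adjusted p = 0.0900) or CTNNB1 siRNA replicate 1 (0.0557) was left out. The sister enzyme CMTR2 measured 0.08 ± 0.11, the cap-binding factor EIF4E 0.30 ± 0.15 (adjusted p = 0.303) and RAMAC, a cofactor of cap guanine methylation, 0.16 ± 0.10 (adjusted p = 0.404).

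The eIF3 complex, which brings the small ribosomal subunit to mRNA and is bound by IFIT1 and IFIT2, lay on the other side of 0. Of 12 measured subunits 6 fell, none rose and 6 stayed short of the threshold. Over all genes 2.65% were called lower, and 8992 of 18417 changes were negative. The median change of the subunits was -0.42, and all 12 changes were negative under every scaling tried. The subunits were bright, with a list mean of 10.14 to 10.25 on the control arrays. Without the dimmest 50% of genes, 1216 of 9208 genes were called lower and 645 higher. Whether the fall is particular to eIF3 was not tested. EIF3A, the scaffold subunit, fell by 0.73 ± 0.11 (SE; adjusted p = 0.00644), from 10.34 ± 0.07 to 9.61 ± 0.18 (SD, n = 3 each). EIF3B fell by 0.57 ± 0.11 (adjusted p = 0.0149), EIF3F by 0.46 ± 0.10 (adjusted p = 0.0268), EIF3K by 0.44 ± 0.10 (adjusted p = 0.0389), EIF3L by 0.42 ± 0.10 (adjusted p = 0.0379) and EIF3D by 0.40 ± 0.10 (adjusted p = 0.0451). EIF3E, a subunit that IFIT1 and IFIT2 are known to contact, measured -0.38 ± 0.12 (adjusted p = 0.0952). The subunit gene EIF3C had no row with a single symbol and was not measured. The count depended on the setting. It was 3 under cyclic loess, 4 after quantile normalization was repeated, 8 with median centring, 10 with a trended and robust variance and 11 without the dimmest 50% of genes. With 1 array left out the median change stayed between -0.46 and -0.38 with all 12 changes negative, but 1 subunit passed without control replicate 1, without control replicate 3 or without CTNNB1 siRNA replicate 1, 2 without either replicate 2, and 5 without CTNNB1 siRNA replicate 3. EIF3A passed with any 1 array left out, whereas EIF3D, EIF3K and EIF3L each missed the threshold whichever array was left out.

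**Figure D4:**
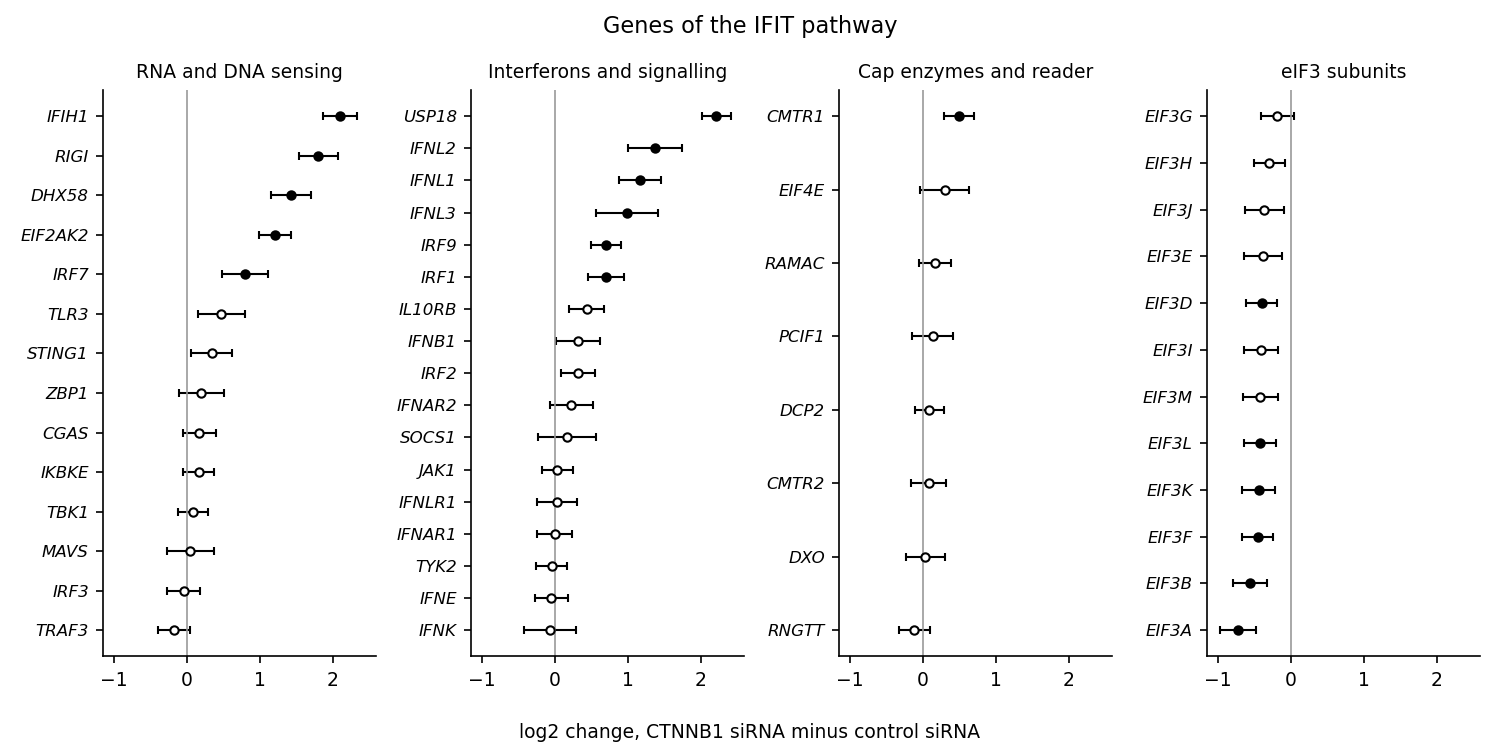
Log2 change, CTNNB1 siRNA minus control siRNA, with 95% confidence intervals, of the measured genes of nucleic acid sensing, of interferons and their signalling, of the mRNA cap and of eIF3; filled points passed an adjusted p of 0.05. Filled points lie right of 0 in the first 3 panels, up to 2.21 for USP18, and left of 0 among the eIF3 subunits, down to -0.73 for EIF3A.

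Markers of other cell types were read beside the family because blood cells also express IFIT genes. The samples were all labelled as the single line YCC3, so signal in such a marker does not show that another cell type was present. Of 12 measured leukocyte markers 1 rose, CD68, a lysosomal protein gene (0.95 ± 0.14, SE; adjusted p = 0.00547), and 11 did not pass. Over all genes 4.72% were called, so a count of 1 among 12 is near the background. The mean of the list ran from 5.15 to 5.30 log2 units on the control arrays and from 5.28 to 5.53 on the CTNNB1 siRNA arrays. The list held bright and dim genes. LYZ, the lysozyme gene, was bright, at 12.36 ± 0.04 in controls against 12.07 ± 0.07 after CTNNB1 siRNA (SD, n = 3 each), with a change of -0.28 ± 0.09 (SE; adjusted p = 0.114) and groups that did not overlap. The pan-leukocyte marker PTPRC lay near the bottom of the scale, at 2.58 ± 0.19 against 2.67 ± 0.07 (SD, n = 3 each). Of 8 markers of fibroblasts and endothelium limma called none, and none had an unadjusted p under 0.05. With 4.72% of all genes called, a count of 0 among 8 is near the background too. The part of these markers in the IFIT signal was not tested.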

How the data were processed

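The deposited values are log2 signals on an Affymetrix Human Gene ST array that the authors made with RMA in Affymetrix Expression Console 1.1, per the submitters' processing notes. The range of the values showed the scale to be log2. RMA makes the distributions of all arrays alike, which hides any shift common to most genes. The genome build is not given in the sources used here. Of 33297 rows, 19460 had a single gene symbol; the brightest row per gene left 18417 genes, with no filter.

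Each gene was fitted with limma 3.58.1 in R 4.3.3 (two-sided, Benjamini-Hochberg over all 18417 genes, threshold 0.05), a fit tested on simulated data. The members and lists were chosen with earlier results of these data known. Genes named are the members, CTNNB1, all neighbours, called genes of each list or its 3 smallest p-values, and the 3 genes nearest each called member; others were named after their values were seen. The number of arrays limits the precision. Same-numbered arrays were not taken as pairs. Other settings were a replicate block, other scalings, filters, variance models, row choices and leaving out each array.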

Additional observations from a re-analysis of the deposited data

How the results depend on the processing

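The rises of IFIT1, IFIT2 and IFIT3 passed in all 17 other settings, with adjusted p of at most 0.0109, 0.0428 and 0.0208. IFIT5 passed in 16, the exception being the per-gene test without moderated variance, where its change of 2.07 had an adjusted p of 0.0503. IFIT1B kept its negative sign in the 15 settings that tested it and passed in 2, at -0.41 with a replicate block (adjusted p = 0.0468) and at -0.45 with median centring; the 2 filters on dim genes removed it. Deviations of same-numbered arrays correlated at -0.02, 0.33 and 0.22. Across numbers 2 and 3 the correlations were -0.29 and -0.27, but not every array correlated best with its own number. The labels name no pairs, so the main fit took none and a replicate block was run as another setting. With the block 5 members and 1177 genes in all were called, against 4 and 870 without it.

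Over all genes, limma called 1483 without the dimmest 25% of genes, 1861 without the dimmest 50%, 1622 with a trended and robust variance, 252 over all rows of the table and 111 without moderation, against 870. For the cap and eIF3 genes together the count of 7 became 4 under cyclic loess, 12 without the dimmest 50%, 11 with the trended variance, and 0 over all rows or without moderation, where 12 and 11 had an unadjusted p under 0.05. Without moderation 5 sensing and signalling genes were called in place of 11, and CTNNB1, at -0.77, had an adjusted p of 0.0660. Leaving out single arrays gave 283 to 877 calls over all genes and 1 to 6 among cap and eIF3 genes.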

Other observations

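CTNNB1 and the IFIT genes were read on the same arrays. On CTNNB1 siRNA replicates 1 to 3, CTNNB1 measured 10.94, 11.06 and 11.20 log2 units. IFIT1, IFIT2 and IFIT3 were lowest on replicate 1 and highest on replicate 3, as CTNNB1 was. IFIT5 (8.28, 7.99 and 8.42) and IFIT1B (3.44, 3.20 and 3.48) were lowest on replicate 2 and highest on replicate 3. A relation between the depth of silencing and IFIT signal was not tested.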
